A study of Mus musculus with 6 samples.

Results

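The microRNA genes described here are those whose symbol begins with Mirlet7 or with Mir and a digit and whose mean log2 signal over all 6 samples was at least 5. Of 483 microRNA genes measured by a probe set with a single gene symbol, 119 met this rule, or 24.6%, among 22180 genes in all. They were thus chosen by their measured mean signal, not by a difference between subsets, and their levels are given as a description with no test. Where a gene had several such probe sets, the brightest stood for it. Expression was measured on Affymetrix arrays in dermal macrophages that had been sorted by flow cytometry from digested ear skin at 2 weeks of age. The mice were C57Bl/6 animals of the genotype Cx3cr1+/gfp, in which a reporter for green fluorescent protein replaces a single allele of Cx3cr1, the fractalkine receptor gene. All 3 sorted subsets, CX3CR1low, CX3CR1int (intermediate) and CX3CR1high, thus carried the same reporter allele and received no treatment named in the labels. Each subset had 2 samples, each from 4 pooled mice, and the samples came from 2 independent litters, so that p-values rest on the spread between pools.

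MicroRNAs are short RNAs cut from longer transcripts. In the nucleus, Drosha with its partner Dgcr8 releases a hairpin, Xpo5 (exportin 5) carries it out, and Dicer trims it to the mature form, which guides an Argonaute protein to messenger RNAs that pair with the seed near its 5′ end. In macrophages, microRNAs such as miR-146a and miR-511 are known as regulators of inflammatory signalling. The array probes did not separate these forms: a signal may come from the primary transcript, the hairpin, the mature RNA or the RNA of a gene that overlaps the hairpin, and the RNA had been amplified by a whole-transcriptome method before labelling. A level below is therefore a level of RNA from the locus, not of mature microRNA.

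The sequences on which the results turn are shown here, with bases 2 to 8, the seed, in capitals. They are RefSeq sequences of the GRCm38.p6 assembly, whose tables held a mature sequence for 101 of the 119 genes. Mir1898 (hairpin at chr15:12171492-12171574, plus strand) and Mir677 (chr10:128085286-128085363, plus strand) were the microRNA genes that passed the test between subsets. Mir17 (chr14:115043671-115043754) and Mir18 (chr14:115043851-115043946) are neighbours on the plus strand, as are Mir23a (chr8:84208518-84208592) and Mir27a (chr8:84208672-84208758). Mir146 (chr11:43374397-43374461, minus strand), Mir511 (chr2:14261003-14261081, plus strand), Mir142 (chr11:87756864-87756927, plus strand), Mir29a (chr6:31062660-31062747, minus strand) and Mirlet7a-1 (chr13:48538179-48538272, minus strand) are also shown. They are on the list of known microRNAs used below, and both of their CX3CR1int samples lay below the 4 others. Mir5099, Mir5125, Mir673, Mir149 and Mir1931 had the same order, but are not on that list and are not shown. Mir103-2 and Mir107 are shown because they share their seeds.
mmu-miR-1898: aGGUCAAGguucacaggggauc
mmu-miR-677-5p: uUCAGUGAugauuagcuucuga
mmu-miR-677-3p: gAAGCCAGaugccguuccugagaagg
mmu-miR-17-5p: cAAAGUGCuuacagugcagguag
mmu-miR-18a-5p: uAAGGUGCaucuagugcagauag
mmu-miR-23a-3p: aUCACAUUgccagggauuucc
mmu-miR-27a-3p: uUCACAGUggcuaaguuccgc
mmu-miR-146a-5p: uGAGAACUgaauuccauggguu
mmu-miR-511-3p: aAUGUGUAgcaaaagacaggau
mmu-miR-142a-3p: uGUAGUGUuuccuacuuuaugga
mmu-miR-29a-3p: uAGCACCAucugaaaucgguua
mmu-let-7a-5p: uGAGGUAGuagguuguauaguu
mmu-miR-103-3p: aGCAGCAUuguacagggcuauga
mmu-miR-107-3p: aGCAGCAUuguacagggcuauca

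The 6 arrays had medians of 4.84 to 4.94 on the log2 scale. Cx3cr1 itself was at 10.55 and 9.51 in the CX3CR1high samples and at 5.87 to 7.05 in the other 4. The 12 macrophage markers, such as Adgre1 and Csf1r, had a mean log2 signal of 10.5 to 10.7 in every sample, and none of them was called in any comparison. Markers of other skin cells were lower but present. The mean of 13 of 14 keratinocyte markers was 7.02 and 7.61 in the CX3CR1low samples, 6.62 and 6.88 in the CX3CR1int samples, and 6.51 and 6.71 in the CX3CR1high samples. For 10 fibroblast markers it was 7.27 and 7.85, 6.95 and 7.06, and 6.64 and 6.70, and for 6 mast cell markers 5.97 and 5.68, 5.35 and 5.32, and 4.43 and 4.36, in the same order. The mast cell marker Fcer1a was below the dim level in every sample. Of the keratinocyte markers 1 (Krt10) and of the mast cell markers 3 (Cpa3, Mcpt4 and Cma1) were called lower in CX3CR1high than in CX3CR1low cells, and 1 (Cpa3) lower than in CX3CR1int cells. The part of these cells in the microRNA differences below was not tested. In sorted pools, fewer cells of a type and less RNA per cell cannot be told apart. Replicates 1 and 2 of each subset differed in the female transcript Xist, at 7.39 to 7.97 and at 10.99 to 11.39, so that the spread within a subset includes the sex of the mice.

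The mean log2 signals of the 119 microRNA genes ran from 5.01 to 11.9, with a median of 6.10. Signals of at least 8 were found for 10 genes, signals from 6 to 8 for 52, and signals from 5 to 6 for 57. The 8 brightest were Mir5099 at 11.91, Mir692-1 at 11.39, Mir449b at 11.34, Mir703 at 10.69, Mir1195 at 10.03, Mir467c at 9.22, Mir5125 at 8.998 and Mir1956 at 8.74. Hence the brightest symbols were not those of the well-known macrophage microRNAs, and levels of different probe sets, which bind with different strength, do not rank the abundance of the RNAs. Just inside the limit were Mir1899 at 5.02, Mir34a, a target of the tumour suppressor p53, at 5.01 and Mir680-1 at 5.01. Just outside were Mir297a-4 at 4.98, Mir23b at 4.96 and Mir1981 at 4.95.

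Base composition moved with the level. The 94 genes above the limit with a hairpin in the RefSeq table had a median of 54.8% G and C in the hairpin, against 47.1% for 306 microRNA genes below it. Median hairpin lengths were close, at 85 and 83 bases. Over all 400 microRNA genes with a hairpin, Spearman's rho between G and C content and mean signal was 0.491, a description across genes that share arrays and labelling. Array signals depend on the base composition of the probes, and its part in which genes passed the limit was not tested. Hairpins lay inside another gene on the same strand for 43.6% of the genes above the limit and for 52.6% of those below it.

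**Figure D1:**
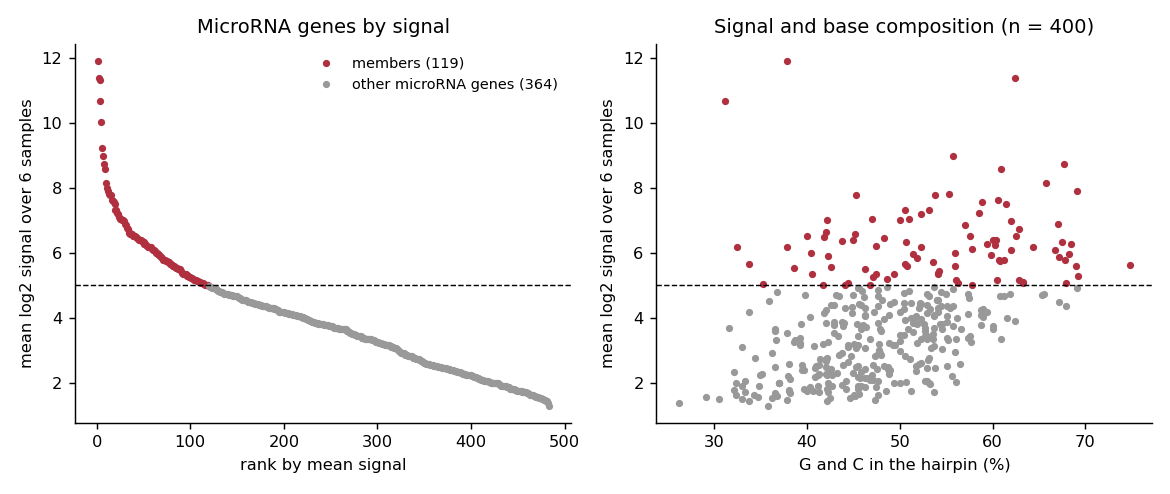
Left, mean log2 signal over 6 samples of 483 microRNA genes, ranked by that signal, with the limit of 5 as a dashed line and the 119 genes above it in red. Right, the same mean against the percentage of G and C in the hairpin for 400 genes, in which the genes above the limit sit further to the right, with a median of 54.8% against 47.1%.

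Of a list of microRNAs known from macrophages or restricted to other cells, 20 genes were above the limit, 52 were below it, 22 were found only on probe sets with several symbols and 1 had no row. The genes with several symbols, Mir155, Mir21a and Mir223 among them, get no level here. Mir142, which is specific to blood cells, had a mean log2 signal of 7.02. Mir146, the symbol used for miR-146a, a microRNA induced by inflammatory signals that restrains them in turn, was at 6.53, and Mir511 was at 6.50. Mir15a, which targets the survival gene Bcl2, was at 7.60. Of microRNA genes known from other lineages, the keratinocyte gene Mir203 was at 2.502, the epithelial Mir205 at 2.98, the muscle gene Mir206 at 1.54, and the erythroid genes Mir144 and Mir451a at 1.48 and 4.18. Of genes known from mesenchymal cells, Mir199a-1 was at 4.15 and Mir199b at 2.06. The muscle genes Mir133a-1, Mir133a-2 and Mir1a-1 were at 3.10, 2.35 and 1.72, while the muscle gene Mir133b, which was not on the list, was at 5.09. Mir143, known from smooth muscle, passed the limit at 5.502, and Mir145 was at 2.10. Of the let-7 genes, which repress growth and Lin28 genes, only Mirlet7a-1 passed among the 11 measured alone, at 5.55, with the other 10 at 1.44 to 4.43.

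Between subsets, few microRNA genes differed beyond the spread between samples. All 119 were among the 15529 genes tested with limma, and a gene was called at an adjusted p (Benjamini-Hochberg over all genes tested) below 0.05. In CX3CR1high against CX3CR1low cells 1 microRNA gene was called, lower in CX3CR1high, where 0.399% of all genes were called, 0.187% lower and 0.213% higher. In CX3CR1high against CX3CR1int cells 2 were called, 1 in each direction, against 0.142% of all genes, 0.0773% higher and 0.0644% lower in CX3CR1high. In CX3CR1int against CX3CR1low cells 0 were called, against 0.00644% of all genes, with 20 microRNA genes at an unadjusted p below 0.05 (limma). With the replicate number as a block the shares of all genes were 0.992%, 0.303% and 0%, and 1, 2 and 0 microRNA genes were called. The comparisons share samples and are not independent.

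Most microRNA genes differed little between subsets, though the median size of their differences was larger than that of all genes. Whether their spread within subsets was also larger than that of all genes was not tested. The difference was under 0.5 on the log2 scale for 102 of 119 genes in CX3CR1high against CX3CR1low cells, and for 95 in each of the other comparisons. The median difference of the 119 was 0.04 for CX3CR1high minus CX3CR1low, where all genes had 0.01. It was 0.05 for CX3CR1high minus CX3CR1int and 0.06 for CX3CR1int minus CX3CR1low, where all genes had 0 and 0.01. The first of these medians was 0.16 without CX3CR1low replicate 2 and -0.02 at the other end of the range when samples were left out in turn. Without regard to sign, the median difference of the 119 was 0.205 for CX3CR1high against CX3CR1low, where all genes had 0.165. It was 0.24 against 0.155 for CX3CR1high and CX3CR1int, and 0.245 against 0.14 for CX3CR1int and CX3CR1low.

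Comparisons that involved CX3CR1int cells held more of the larger differences. A difference of at least 2-fold was found for 1.68% of the microRNA genes in CX3CR1high against CX3CR1low cells, close to the 1.5% of all genes. For CX3CR1high against CX3CR1int the shares were 6.72% and 0.953%, with 5 microRNA genes higher and 3 lower in CX3CR1high. For CX3CR1int against CX3CR1low they were 5.04% and 0.489%, with 1 microRNA gene higher and 5 lower in CX3CR1int. An unadjusted p below 0.05 was found for 9, 19 and 20 microRNA genes in the 3 comparisons, or 7.56%, 16.0% and 16.8%, where all genes had 9.65%, 7.89% and 4.89%.

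**Figure D2:**
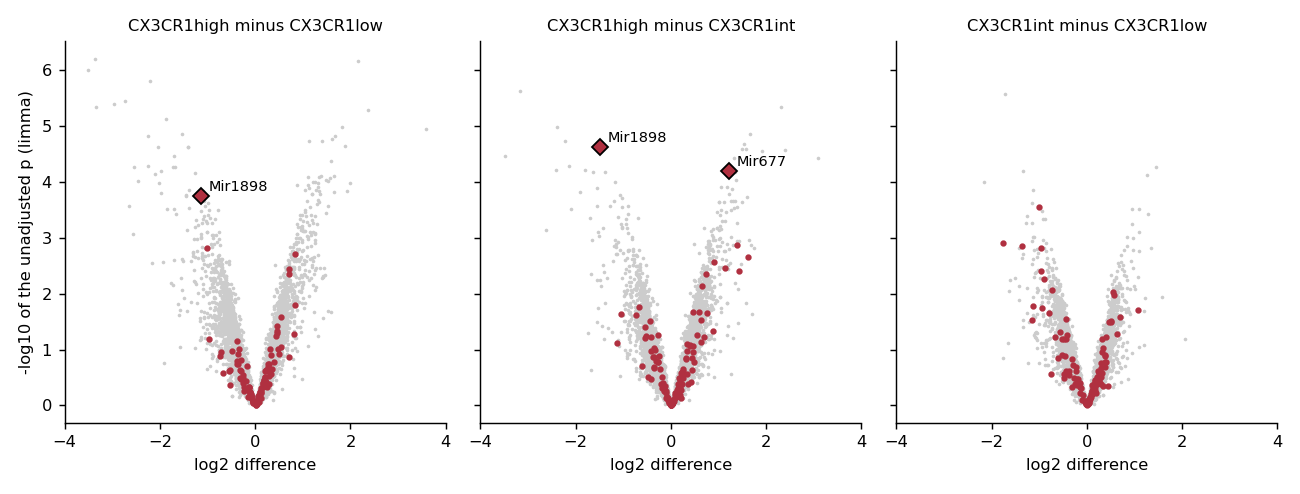
Log2 difference against -log10 of the unadjusted limma p in the 3 comparisons, with all 15529 genes tested in grey, the 119 microRNA genes in red and called ones as labelled diamonds. Mir1898 lies on the left of the first and second panels and Mir677 on the right of the second, and no microRNA gene is called in the third.

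Mir1898 was lowest in CX3CR1high cells. Its log2 signal was 6.37 and 6.52 in the CX3CR1low samples, 6.92 and 6.66 in the CX3CR1int samples, and 5.39 and 5.23 in the CX3CR1high samples. Both CX3CR1high samples lay 0.98 below the lowest of the 4 others, the widest such gap among the 119 genes. It fell 2.79-fold from CX3CR1int to CX3CR1high cells (limma, a log2 difference of -1.48 ± 0.18 as SE with n = 2 per subset, adjusted p = 0.0406). Against CX3CR1low cells it fell 2.20-fold (limma, a log2 difference of -1.14 ± 0.18 as SE with n = 2 per subset, adjusted p = 0.0454). CX3CR1int and CX3CR1low cells differed by 0.35 (adjusted p = 0.996, limma).

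The hairpin of Mir1898 lies within Zfr, the gene of a zinc finger RNA-binding protein, on the same strand. Zfr was bright, at a mean of 9.29, and its own difference was 0.09 for CX3CR1high minus CX3CR1low and 0.05 for CX3CR1high minus CX3CR1int. The probe set of Zfr thus did not move with that of Mir1898. These small differences of Zfr changed sign when single samples were left out, between -0.06 and 0.24 and between -0.10 and 0.20. The calls of Mir1898 ended under several alternatives, with adjusted p of up to 0.266 when samples were left out in turn (CX3CR1high replicate 2 for CX3CR1low and, at 0.264, CX3CR1high replicate 1 for CX3CR1int), while the differences stayed between -1.22 and -1.06 and between -1.61 and -1.35.

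Mir677 was lowest in CX3CR1int cells. Its log2 signal was 5.58 and 5.64 in the CX3CR1low samples, 4.65 and 4.57 in the CX3CR1int samples, and 5.71 and 5.95 in the CX3CR1high samples. Both CX3CR1int samples lay 0.93 below the lowest of the 4 others. It was 2.33-fold higher in CX3CR1high than in CX3CR1int cells (limma, a log2 difference of 1.22 ± 0.17 as SE with n = 2 per subset, adjusted p = 0.0474). Against CX3CR1low cells the CX3CR1int level was 2.0-fold lower (a log2 difference of -1.0 ± 0.17 as SE with n = 2 per subset), which had the smallest adjusted p of a microRNA gene in that comparison, 0.461 (limma). Its hairpin lies within Atp5b, the gene of the ATP synthase beta subunit, on the same strand. Atp5b was at 10.5 and differed by 0.06 between CX3CR1high and CX3CR1int and by 0.08 between CX3CR1int and CX3CR1low cells. Leaving out any of the 6 samples ended the call of Mir677, with adjusted p of 0.0839 to 0.299, and kept the difference between 1.10 and 1.34.

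A group that holds several well-studied microRNAs was lowest in CX3CR1int samples, as Mir677 was. Both CX3CR1int samples were below all 4 others for 15 of the 119 genes, or 12.6%, where 5.85% of all genes had this order. They were Mir5099, Mir5125, Mir673, Mir142, Mir17, Mir146, Mir511, Mir18, Mir23a, Mir149, Mir27a, Mirlet7a-1, Mir29a, Mir1931 and Mir677, and their gaps to the 4 others ran from 0.02 to 0.93. Only Mir677 was called, and only against CX3CR1high cells.

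The largest differences of this group were those of Mir17 and Mir18, members of a cluster transcribed as a single primary RNA under the control of Myc, which promotes growth. Mir17 was at 6.71 and 7.35 in the CX3CR1low samples, 6.06 and 5.26 in the CX3CR1int samples, and 7.13 and 6.95 in the CX3CR1high samples. Mir18 was at 6.60 and 7.44, 5.73 and 4.78, and 6.55 and 7.19. In both genes the CX3CR1int samples stood below the rest, by 0.65 and 0.82, and the CX3CR1low and CX3CR1high samples overlapped. The difference of CX3CR1high minus CX3CR1int was 1.38 ± 0.30 for Mir17 (SE, n = 2 per subset, adjusted p = 0.197, limma). For Mir18 it was 1.62 ± 0.38 (SE, n = 2 per subset, adjusted p = 0.237, limma). Against CX3CR1low cells the CX3CR1int level differed by -1.37 for Mir17 and by -1.77 for Mir18 (adjusted p = 0.684 for both, limma). Of the same cluster, Mir19a was at 2.56 and Mir20a at 4.41, both below the limit. Mir20a followed Mir17 and Mir18 only between CX3CR1low and CX3CR1int. It was at 5.59 and 4.81 in the CX3CR1low samples, 3.69 and 4.46 in the CX3CR1int samples, and 4.33 and 3.58 in the CX3CR1high samples. Its difference of CX3CR1int minus CX3CR1low was -1.125 (adjusted p = 0.919, limma). Its difference of CX3CR1high minus CX3CR1int was -0.12 (adjusted p = 0.967, limma), with the CX3CR1low samples above the rest.

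Mir23a and Mir27a, which are also made from a shared primary RNA, were lowest in CX3CR1int samples too. Mir27a was at 6.02 and 6.14 in the CX3CR1low samples, 4.83 and 5.75 in the CX3CR1int samples, and 6.56 and 6.27 in the CX3CR1high samples. Mir23a was at 5.98 and 6.11, 5.74 and 5.52, and 6.43 and 6.14. The subsets did not overlap for either gene, with CX3CR1int lowest and CX3CR1high highest. The difference of CX3CR1high minus CX3CR1int was 1.13 for Mir27a (adjusted p = 0.299, limma) and 0.66 for Mir23a (adjusted p = 0.387, limma).

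Of the listed macrophage microRNAs, Mir146, Mir511 and Mir142 were also lowest in CX3CR1int samples, but others were not. Mir146 was at 7.27 and 6.70 in the CX3CR1low samples, 6.06 and 5.67 in the CX3CR1int samples, and 7.37 and 6.12 in the CX3CR1high samples, so that a CX3CR1high sample lay just above the CX3CR1int samples. Mir511 was at 6.50 and 7.28, 6.38 and 5.52, and 6.63 and 6.67. Mir142 was at 6.91 and 7.55, 6.52 and 6.83, and 7.23 and 7.05. Their differences of CX3CR1int minus CX3CR1low were -1.12, -0.94 and -0.56, with adjusted p of 0.954, 0.961 and 0.996 (limma), which the test did not separate from the spread between samples. Mir511 lies within Mrc1, the gene of the macrophage mannose receptor, which was at 11.7 and differed by 0.01 between CX3CR1int and CX3CR1low cells. Among the other listed genes, CX3CR1int minus CX3CR1low was 0.51 for Mir30d, 0.41 for Mir107, 0.34 for Mir103-2 and 0.185 for Mir15a. It was 0.105 for Mir99b, 0.095 for Mir212 and 0.005 for Mir9-1, and -0.67 for Mir99a and -0.15 for Mir34a, with none called.

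Mir29a, which represses collagen genes, was at 5.68 and 6.26 in the CX3CR1low samples, 5.27 and 4.76 in the CX3CR1int samples, and 5.59 and 5.72 in the CX3CR1high samples. Mirlet7a-1 was at 5.70 and 5.68, 5.20 and 5.30, and 5.81 and 5.63, with little spread within each subset. Its difference of CX3CR1high minus CX3CR1int was 0.47 ± 0.17 (SE, n = 2 per subset, adjusted p = 0.506, limma). Among the brightest genes, Mir5099 was at 11.84 and 12.35, 11.04 and 11.68, and 12.24 and 12.28, and Mir5125 at 9.01 and 9.83, 8.58 and 8.45, and 9.03 and 9.09. Mir221, which represses the receptor gene Kit, was at 6.37 and 7.31, 5.94 and 5.44, and 5.42 and 6.78, so that its CX3CR1high samples spanned the range of the others. Its difference of CX3CR1high minus CX3CR1int, 0.41, became -0.27 without CX3CR1high replicate 2.

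**Figure D3:**
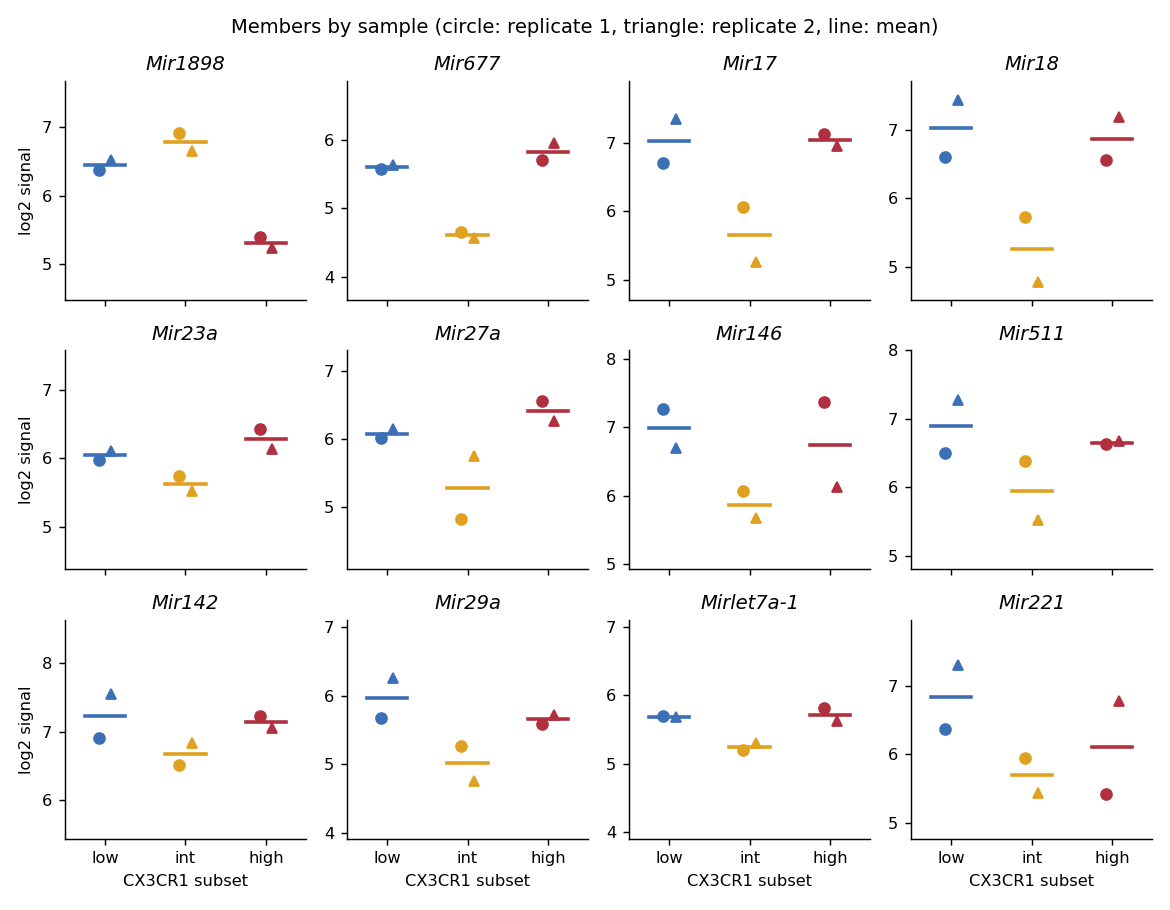
Log2 signal of 12 microRNA genes in the 3 subsets, with circles for replicate 1, triangles for replicate 2 and lines for subset means, each panel with its own axis of log2 signal that does not start at 0. CX3CR1high samples are lowest for Mir1898, at 5.39 and 5.23, and CX3CR1int samples lie below the 4 others for the rest save Mir221. The 12 are a selection, and of the 13 genes with both CX3CR1int samples above the 4 others only Mir1898 is shown.

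For 64 small nucleolar, Cajal body and spliceosomal RNA genes, a list chosen after its values were seen, the median difference was 0.48 for CX3CR1high minus CX3CR1int and -0.33 for CX3CR1int minus CX3CR1low. None was called in these comparisons (0 and 0 by limma, with 25 and 22 at an unadjusted p below 0.05). Of all genes, 0.142% and 0.00644% were called, and 7.89% and 4.89% had an unadjusted p below 0.05 (limma). The medians of all genes were 0 and 0.01 in these comparisons. What small RNAs as a class contributed to the low CX3CR1int values of microRNA genes was not tested.

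The CX3CR1int samples were above all 4 others for 13 genes, or 10.9%, against 5.96% of all genes, with gaps of 0.01 to 0.19. These were Mir692-1, Mir703, Mir467c, Mir1954, Mir466h, Mir1191, Mir1963, Mir1898, Mir505, Mir30d, Mir669a-3, Mir679 and Mir194-2. Mir703 was at 10.39 and 10.54 in the CX3CR1low samples, 11.14 and 10.91 in the CX3CR1int samples, and 10.38 and 10.80 in the CX3CR1high samples. Mir505 was at 5.53 and 5.82, 6.17 and 7.33, and 5.32 and 6.10, and its difference of 1.08 from CX3CR1low (adjusted p = 0.972, limma) was 0.495 without CX3CR1int replicate 2.

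CX3CR1high samples lay above all others for 12 genes, or 10.1%, against 9.49% of all genes, and below all others for 3, or 2.52%, against 8.83%. The former were Mir3058, Mir483, Mir1964, Mir23a, Mir181d, Mir27a, Mir467f, Mir143, Mir3088, Mir677, Mir107 and Mir124a-2, and the latter Mir761, Mir1898 and Mir1938. Mir483, whose hairpin lies in the growth factor gene Igf2, was at 7.18 and 7.35 in the CX3CR1low samples, 7.37 and 7.38 in the CX3CR1int samples, and 8.31 and 7.91 in the CX3CR1high samples. The CX3CR1high samples stood 0.53 above the rest, and the difference from CX3CR1low was 0.85 ± 0.19 (SE, n = 2 per subset, adjusted p = 0.166, limma). Igf2 was dimmer than its microRNA gene, at 5.53, and differed by -0.03 in the same comparison.

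Mir1938 was at 5.94 and 6.59 in the CX3CR1low samples, 5.82 and 5.76 in the CX3CR1int samples, and 5.23 and 5.26 in the CX3CR1high samples. The subsets did not overlap, with levels lower from CX3CR1low to CX3CR1high, and the difference between those was -1.02 ± 0.23 (SE, n = 2 per subset, adjusted p = 0.143, limma). Mir467f was at 5.51 and 5.34, 4.18 and 5.48, and 6.03 and 6.47, and its difference of CX3CR1high minus CX3CR1int of 1.42 (adjusted p = 0.321, limma) was 0.77 without the CX3CR1int sample at 4.18, with both CX3CR1high samples 0.52 above the 4 others. Mir3088 was at 4.80 and 5.12, 5.54 and 5.54, and 5.62 and 5.70, with the CX3CR1low samples below the others.

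The CX3CR1low samples lay above the 4 others for 4 genes (Mir665, Mir341, Mir1938 and Mir1931), or 3.36%, against 6.47% of all genes. They lay below for 7 (Mir483, Mir1190, Mir1964, Mir188, Mir3088, Mir107 and Mir124a-2), or 5.88%, against 7.42%. In all, 43 of the 119 genes had a subset outside the 4 other samples in either direction, or 36.1%, near the 36.6% of all genes, and 76 had none.

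For several genes with a large difference the 2 samples of a subset disagreed. The SD within a subset was over 0.5 for 18 genes in CX3CR1low, 14 in CX3CR1int and 16 in CX3CR1high samples, with medians over the 119 genes of 0.177, 0.148 and 0.198. Mir340 was at 6.04 and 7.27 in the CX3CR1low samples, 5.52 and 6.83 in the CX3CR1int samples, and 5.62 and 5.75 in the CX3CR1high samples, and the replicate 2 samples of the first and second subsets were the high ones. Mir1949 was at 5.35 and 5.33, 6.23 and 5.36, and 3.62 and 5.71, and its difference of CX3CR1high minus CX3CR1low, -0.68, became 0.37 without CX3CR1high replicate 1. Mir680-1 was at 4.71 and 5.63, 5.87 and 4.58, and 4.35 and 4.90, and its difference of CX3CR1high minus CX3CR1int, -0.60, became 0.05 without CX3CR1int replicate 1.

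Some genes share a seed with another. Mir103-2 and Mir107, which lie in genes of pantothenate kinases and carry the seeds GCAGCAU and GCUUCUU, differ only near the 3′ end of the mature forms printed above. Mir107 was at 4.82 and 4.92 in the CX3CR1low samples, 5.27 and 5.29 in the CX3CR1int samples, and 5.79 and 5.38 in the CX3CR1high samples, with no overlap between subsets and a difference of CX3CR1high minus CX3CR1low of 0.72 ± 0.19 (SE, n = 2 per subset, adjusted p = 0.227, limma). Mir103-2 was at 6.61 and 8.25, 7.62 and 7.92, and 8.05 and 8.22, and its difference of 0.71 in that comparison became -0.12 without CX3CR1low replicate 1. The host of Mir107, Pank1, differed by -0.51.

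Other shared seeds were those of Mir99a and Mir99b (ACCCGUA and AAGCUCG), Mir181c and Mir181d (ACAUUCA), Mir194-1 and Mir194-2 (GUAACAG), Mir680-1, Mir680-2 and Mir680-3 (GGCAUCU), Mir149 and Mir1943 (AGGGAGG), and Mir3473d and Mir674 (CACUGAG). The difference of CX3CR1high minus CX3CR1int was 0.63 for Mir99a and -0.19 for Mir99b, with adjusted p of 0.671 and 0.848 (limma). For Mir181d it was 0.76 and for Mir181c -0.06, with adjusted p of 0.513 and 0.977 (limma). Whether the members of these pairs differed from each other was not tested.

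Position gave further groups. Of the 94 genes with a position in the RefSeq table, 15 had a hairpin on chromosome 12, the largest number on a chromosome. There, Mir758, Mir329, Mir494, Mir679 and Mir667 lay on the plus strand with no more than 10000 bases between neighbours, as did Mir540 and Mir665, in an imprinted region known for its many microRNAs. Between CX3CR1high and CX3CR1int cells these 5 genes differed by -0.28 to 0.45 and the pair by -0.01 and 0.01, and none was called. Mir3093 and Mir9-1 on chromosome 3 were the remaining close neighbours besides Mir17 with Mir18 and Mir23a with Mir27a.

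For 37 microRNA genes the gene that contains the hairpin on the same strand was also measured. The host was the brighter probe set in 22 of the 37 pairs, by 5.21 for Mrc1 over Mir511 and by 5.20 for Atp5b over Mir677. Across the 37 pairs Spearman's rho of the mean levels was 0.212, and across all 168 microRNA genes with a measured host, those below the limit included, it was 0.46. Of 35 host genes tested 0 were called in any comparison, with 2, 3 and 0 at an unadjusted p below 0.05 (limma) in the order CX3CR1high against CX3CR1low, CX3CR1high against CX3CR1int, and CX3CR1int against CX3CR1low. Of all genes, 0.399%, 0.142% and 0.00644% were called in that order, and 9.65%, 7.89% and 4.89% had an unadjusted p below 0.05 (limma). The differences of host and microRNA gene had rho of 0.096, -0.103 and 0.056 over 36 pairs in that order, with the same sign in 23, 20 and 18 pairs. These are descriptions across genes that share arrays. The tables used here do not say whether a hairpin lies in an exon or an intron of its host.

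**Figure D4:**
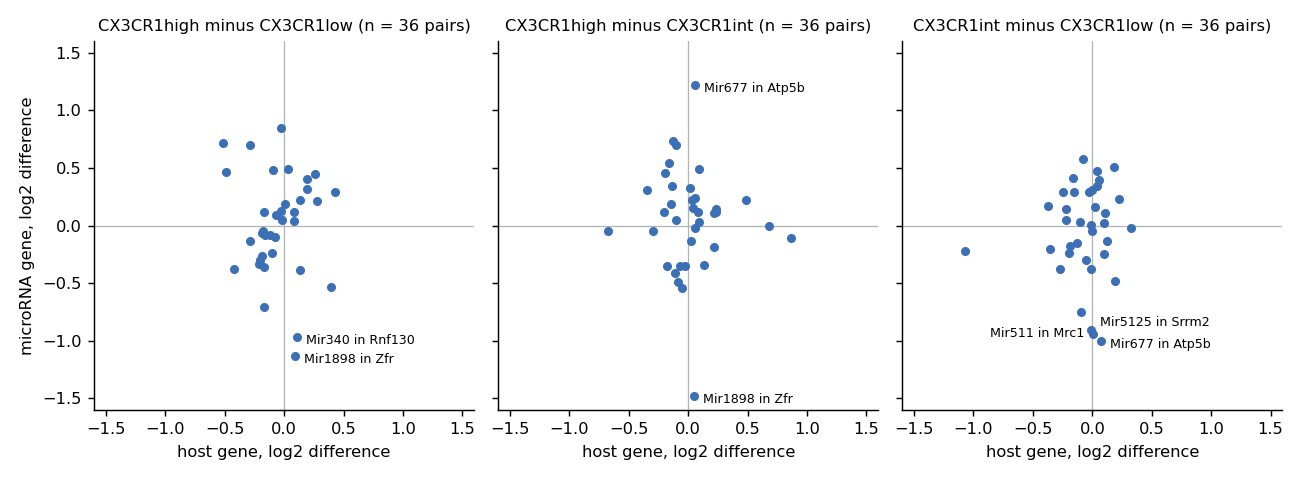
Log2 difference of microRNA genes against that of the gene that contains the hairpin, for 36 pairs in each of 3 comparisons, with labels on pairs in which the microRNA gene differed by at least 0.9. The labelled microRNA genes lie far from 0 on the vertical axis while their hosts lie near 0 on the horizontal axis, as for Mir1898 at -1.48 and Zfr at 0.05.

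Genes of microRNA processing and silencing were measured beside the microRNA genes. Of the genes on the list, 38 had a probe set with a single gene symbol, and 37 of these were tested. Dgcr8, Hnrnpa1, Mettl3, Tnrc6b and Cnot1 had no such probe set under these names and were not tested. Called genes numbered 0, 1 and 1 in CX3CR1high against CX3CR1low, CX3CR1high against CX3CR1int, and CX3CR1int against CX3CR1low cells, and both calls were Ddx5. Of all genes, 0.399%, 0.142% and 0.00644% were called. At an unadjusted p below 0.05 there were 3, 5 and 2 processing genes (limma), where all genes had 9.65%, 7.89% and 4.89%. The median differences of the processing genes were -0.03, -0.02 and 0.01. Drosha differed by -0.11, Xpo5 by -0.37, Dicer1 by 0.12 and Ago2, the Argonaute that can cut its targets, by 0.12 between CX3CR1high and CX3CR1int cells, and none of these passed the test.

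Ddx5 encodes a helicase that binds Drosha and aids the first cut of some microRNAs. Its log2 signal was 10.41 and 10.58 in the CX3CR1low samples, 8.72 and 8.84 in the CX3CR1int samples, and 10.12 and 9.81 in the CX3CR1high samples. The CX3CR1int samples lay 0.97 below the lowest of the others, and the CX3CR1low samples lay above both CX3CR1high samples. It was 2.27-fold higher in CX3CR1high than in CX3CR1int cells (limma, a log2 difference of 1.19 ± 0.16 as SE with n = 2 per subset, adjusted p = 0.0474). It fell 3.28-fold from CX3CR1low to CX3CR1int cells (limma, a log2 difference of -1.72 ± 0.16 as SE with n = 2 per subset, adjusted p = 0.0426). With the replicate number as a block the latter adjusted p was 0.0503, and leaving out any sample ended both calls, with adjusted p of 0.0768 to 0.466 and of 0.141 to 0.505.

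Another probe set lists Ddx5 beside the microRNA gene Mir3064, and so does not stand for the gene here. It was brighter, at 10.76 to 11.06 in all 6 samples, and differed by 0.08 and -0.26 in these comparisons. The probe sets for Ddx5 thus disagreed, and only the single-symbol set showed a large difference. Ddx17, a close relative with the same role, differed by 0.50 between CX3CR1high and CX3CR1int (adjusted p = 0.483, limma) and by -0.35 between CX3CR1int and CX3CR1low cells (adjusted p = 0.996, limma). Whether Ddx5 and the microRNA genes that were low in CX3CR1int are linked was not tested.

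**Figure D5:**
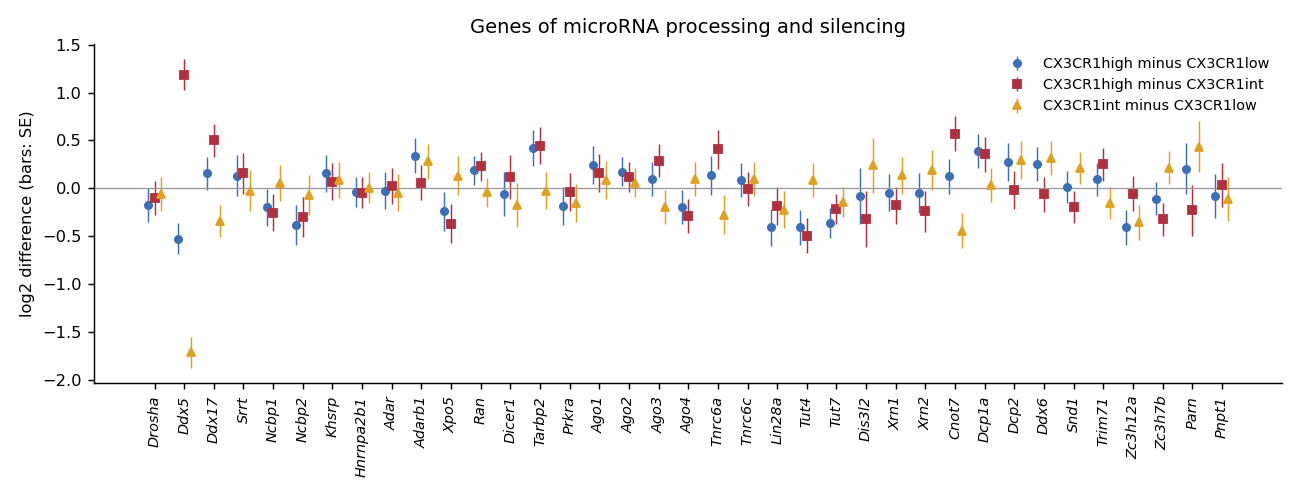
Log2 difference with its standard error for 37 genes of microRNA processing and silencing, with blue circles, red squares and orange triangles for the 3 comparisons named in the key. Ddx5 stands apart at 1.19 and -1.72, and the points of the other genes lie between Tut4 at -0.50 and Cnot7 at 0.57. The other probe set that lists Ddx5, which is not drawn, differed by 0.08 and -0.255 in the same comparisons.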

How the data were processed

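The deposited values are log2 signals. The submitters' processing notes name RMA and the software Affymetrix Expression Console, version 1.4, and the values were used as given. Of 34390 probe sets, 23521 carried 1 gene symbol and were used, 1814 carried several and 9055 none. Several-symbol sets, 136 of which list a microRNA, named no gene. Genes under the 30th percentile of mean signal (4.335) were left out, which left 15529. Of the single-symbol sets, 23328 had an identifier in the RefSeq table, and 0 symbols were updated.

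Subsets were compared with limma 3.58.1 under R 4.3.3 (a mean per subset, intensity trend, two-sided moderated tests), with 3 residual and 5.77 prior degrees of freedom and a median standard error of 0.193. The fit was also run on simulated data. These had independent values, spreads shuffled among genes and no replicate or sex effect, so they do not bear on pairing in the real samples. Whether replicate numbers pair samples was checked: deviations from subset means correlated across genes at 0.146, 0.136 and 0.178, so the number was also fitted as a block. Over the microRNA genes these correlations were -0.064, 0.244 and 0.02. Xist was lower in replicate 1 than in replicate 2 of every subset. The main fit had no block and left the difference between replicate numbers in the spread. In the results above, a block is named beside a gene only where it changed a call. Other adjusted p also moved with the block (limma). For CX3CR1high against CX3CR1low, that of Mir1938 went from 0.143 to 0.0818. For CX3CR1high against CX3CR1int, that of Mir5099 went from 0.274 to 0.0537, while that of Ddx5 in CX3CR1int against CX3CR1low rose from 0.0426 to 0.0503.

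The microRNA genes and lists were chosen with earlier results of these data known. Named were called genes, the 8 brightest, the 6 largest rises and falls per comparison, genes with the widest gaps or nearest the limit, listed microRNAs, hosts of called genes and called processing genes. Alternatives were no filter on dim genes, no trend, quantile normalization, arrays shifted to the same median, the mean of probe sets, other signal limits, fewer subsets and each sample left out. The number of arrays limits the precision.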

Additional observations from a re-analysis of the deposited data

How the results depend on the processing

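Few calls held across settings. Of 77 named differences, 63 never reversed, and of 1156 values under alternatives 1082 kept direction and side of the threshold, 51 lost their call and 23 reversed. The cause of these changes was not tested, save that leaving out a sample lowers the number of samples. Fits with no filter, no trend, the replicate block or only both subsets leave a difference of subset means unchanged and could not reverse it. The same holds when the sample left out belongs to the subset not compared. Many named differences were chosen for their size in these data, and most had no call to lose, so these counts do not measure steadiness.

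Called genes in CX3CR1high against CX3CR1low numbered 62, and 26 with no filter on dim genes, 154 with the replicate block, 39 with only both subsets compared and 0 to 39 with a sample left out. In CX3CR1high against CX3CR1int there were 22, and 0 with no filter, 4 with no intensity trend, 4 with quantile normalization, 0 with arrays shifted to the same median, 47 with the replicate block, 14 with only both subsets and 0 to 17 with a sample left out. In CX3CR1int against CX3CR1low there was 1, and 0 with no filter, no trend, shifted medians, the replicate block, only both subsets or any sample left out. Called microRNA genes in the first comparison fell to 0 with no filter, quantile normalization, only both subsets or any sample left out. In the second they fell to 0 with no filter, no trend, quantile normalization, shifted medians or only both subsets, to 1 with a signal limit of 5.5, and to 0 to 1 with a sample left out. Called processing genes fell to 0 in the second comparison with no filter, no trend, quantile normalization, shifted medians, only both subsets or any sample left out, and in the third with no filter, no trend, shifted medians, the replicate block, only both subsets or any sample left out. The median microRNA difference in the first comparison lay between -0.015 and 0.16 with a sample left out.

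With the replicate block, Mir1898 kept adjusted p of 0.0317 and 0.0254 and Mir677 of 0.0353 (limma), and apart from Ddx5 in CX3CR1int against CX3CR1low the pairing changed no other call of a named gene. Signal limits of 4.5 and 5.5 gave 161 and 89 microRNA genes, and leaving out a sample 116 to 121.

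Reversals concerned small or unsteady differences. For Mir9-1, CX3CR1int minus CX3CR1low was -0.003 with quantile normalization, -0.005 with shifted medians and -0.113 with the mean of probe sets, and -0.30 to 0.31 with a sample left out. For Mir34a, CX3CR1high minus CX3CR1int was -0.008 and -0.01 under the former settings and -0.015 to 0.065 with a sample left out. With a sample left out, CX3CR1high minus CX3CR1low ran from -1.72 to 0.37 for Mir1949, from -0.12 to 1.53 for Mir103-2 and from -0.055 to 0.235 for Zfr. CX3CR1high minus CX3CR1int ran from -1.245 to 0.045 for Mir680-1, from -0.27 to 1.09 for Mir221, from -0.05 to 0.26 for Mir212, from -0.08 to 0.15 for Mir9-1, from -0.10 to 0.20 for Zfr and from -0.04 to 0.16 for Atp5b. CX3CR1int minus CX3CR1low ran from -0.06 to 0.25 for Mir212, from -0.48 to 1.16 for Mir103-2 and from -0.02 to 0.39 for Mir143.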
